A study of Homo sapiens with 30 samples.

Results

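The BCL2 family was read from every probe whose gene name on the array was BCL2, BCL2L1, MCL1, BAX, BAK1, BBC3, PMAIP1, BCL2L11, BID or BAD, which gave 23 of the 41000 probes on the array for all 10 genes. Of the genes, 3 had 1 probe and 7 had several, and 17 of the 23 probes were well above background in the vehicle channel of all 30 arrays. The accession printed on the array belonged to the named gene in the RefSeq gene table for 20 probes and was not matched for 3. The probes of a gene share its transcripts and are not independent of each other.

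The data are 30 two-colour arrays of 5 human breast cancer cell lines, HCC1954, MDA-MB-231, MDA-MB-361, T-47D and ZR-75-30. Each line was treated with recombinant human BMP7 or with vehicle for 30 min, 1, 3, 6, 12 or 24 h, and 1 array compared the pair at each time, with vehicle cells in Cy3 and BMP7 cells in Cy5. The cells of parallel cultures were pooled, no dyes were swapped and no condition was repeated, so the 6 vehicle samples of a line, which differ in time, stand in for replicates and measure only the spread between them. According to the methods, MDA-MB-231 and T-47D were grown at serum concentrations that departed from the supplier's recommendation, so that line and medium cannot be told apart. The lines were chosen by the study for low BMP7 of their own.

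Proteins of the BCL2 family decide whether the outer membrane of the mitochondrion is opened during apoptosis. BAX and BAK1 form the pore, BCL2, BCL2L1 (BCL-xL) and MCL1 hold them back, and the BH3-only proteins BBC3 (PUMA), PMAIP1 (NOXA), BCL2L11 (BIM), BID and BAD bind the survival proteins or activate the effectors. The balance between these classes is known to set how readily breast cancer cells die. BMP7 signals through SMAD proteins, which can bind GC-rich elements in promoters.

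Levels below are log2 intensities of the vehicle channel after the 75th percentile of the array was subtracted, so that 0 is the 75th percentile and 1 unit is a doubling. Probe positions are those of hg18 in the files. A level can be compared between lines for 1 probe, but not between probes. Log2 ratios are BMP7 over vehicle on 1 array, with each array at a median of 0. A difference was called at an adjusted p under 0.05 in limma, with adjustment over all probes tested.

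Markers of breast epithelium were detected in all lines, with low levels of some in MDA-MB-231 and HCC1954. KRT8 and KRT18, keratins of luminal epithelium, were well above background on all 30 arrays, and the leukocyte gene PTPRC on none. In MDA-MB-231 the epithelial adhesion genes EPCAM and CDH1 had median levels of 0.58 and -1.85, against 4.12 to 5.47 and 4.93 to 6.76 in the other lines, and in HCC1954 the luminal keratin KRT19 had 1.27, against 5.63 to 7.89. The mesenchymal gene VIM had a median of 6.95 in MDA-MB-231 and 4.45 in HCC1954, against -4.71 to -2.11 in the other lines. The other mesenchymal gene, CDH2, divided the lines differently. Its medians were -3.09 in MDA-MB-231 and -3.60 in MDA-MB-361, with every array above background. In HCC1954, T-47D and ZR-75-30 CDH2 was not detected. ESR1, the estrogen receptor and a luminal marker, was above background on 0 of 6 arrays of MDA-MB-231. Its median was 1.24 in MDA-MB-361, 0.69 in T-47D, -0.43 in ZR-75-30 and -3.95 in HCC1954. Of the other luminal markers, PGR had a median of 1.57 in T-47D and -3.49 in MDA-MB-361 and was not detected in the remaining lines. FOXA1 had 3.32 in HCC1954, against 4.37 to 5.28 in MDA-MB-361, T-47D and ZR-75-30 and -5.77 in MDA-MB-231. GATA3 had -0.77 in HCC1954 and -2.56 in MDA-MB-231, against 1.19 to 3.30 in the others. PECAM1, an endothelial marker, was well above background on 6 of 6 arrays in HCC1954 and 3 of 6 in MDA-MB-231. The 2 fibroblast markers, COL1A1 and PDGFRB, went different ways. COL1A1 had its highest median in MDA-MB-361, at -0.90, and in MDA-MB-231 only 1 of 6 arrays detected it. PDGFRB was detected in MDA-MB-231 alone, by 5 of 6 arrays, with a median of -3.66. Its median in MDA-MB-361 was -7.28, with 0 of 6 arrays detecting it. The part of these markers in the results below was not tested.

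The promoter of PMAIP1 is shown because its probe had the widest difference between lines, and that of BAK1 because its probe differed between lines in both vehicle level and BMP7 ratio. Both are the 250 bases before the gene start, from RefSeq in GRCh38.p14 and written 5′ to 3′ along the gene. Capitals mark GGCGCC, a GC-rich palindrome bound by BMP-activated SMADs, searched as these letters alone (it reads alike on both strands).
PMAIP1 (chr18:59899746-59899995, + strand): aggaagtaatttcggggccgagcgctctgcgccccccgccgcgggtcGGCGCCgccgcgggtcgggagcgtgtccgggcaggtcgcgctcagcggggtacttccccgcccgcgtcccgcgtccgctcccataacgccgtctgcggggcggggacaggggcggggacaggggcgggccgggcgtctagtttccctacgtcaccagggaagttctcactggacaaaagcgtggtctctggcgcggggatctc
BAK1 (chr6:33580277-33580526, - strand): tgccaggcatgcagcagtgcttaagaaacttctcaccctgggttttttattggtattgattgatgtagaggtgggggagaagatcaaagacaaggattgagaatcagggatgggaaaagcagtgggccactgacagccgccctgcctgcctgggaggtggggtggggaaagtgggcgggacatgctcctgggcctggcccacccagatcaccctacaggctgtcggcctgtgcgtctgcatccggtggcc
The PMAIP1 window held 1 match, whose first base lay at -203 from the gene start, and the BAK1 window held 0. Windows were given for 9 of the 10 genes, and 4 of these 9 (PMAIP1, BAX, BCL2L11 and BID) held the motif in at least 1 window. By window, 6 of 15 held it, where windows of 1 gene can overlap, against 16.4% of all 35116 windows of this length. A match describes the letters and is not a binding site.

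Before treatment with BMP7 is considered, the vehicle cells answer which family members each line expressed. The widest differences were those of PMAIP1 and of the BCL2 probe A_23_P352266, both highest in MDA-MB-231. Of the 23 probes, 22 differed between the 5 lines, against 76.9% of all probes. The range between the highest and the lowest line mean had a median of 1.85 over the 23 probes and of 1.50 over all probes. In single pairs of lines 142 of 230 comparisons (61.7%) were called, against 47.8% over all probes and pairs. MDA-MB-231 had the highest mean for 8 probes and MDA-MB-361 the lowest for 8, and the share over all probes was not determined. Several of these are probes of 1 gene, such as those of MCL1 and BAX, and are not independent. Each value is a bulk average, in which fewer expressing cells and less RNA per cell cannot be told apart.

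**Figure D1:**
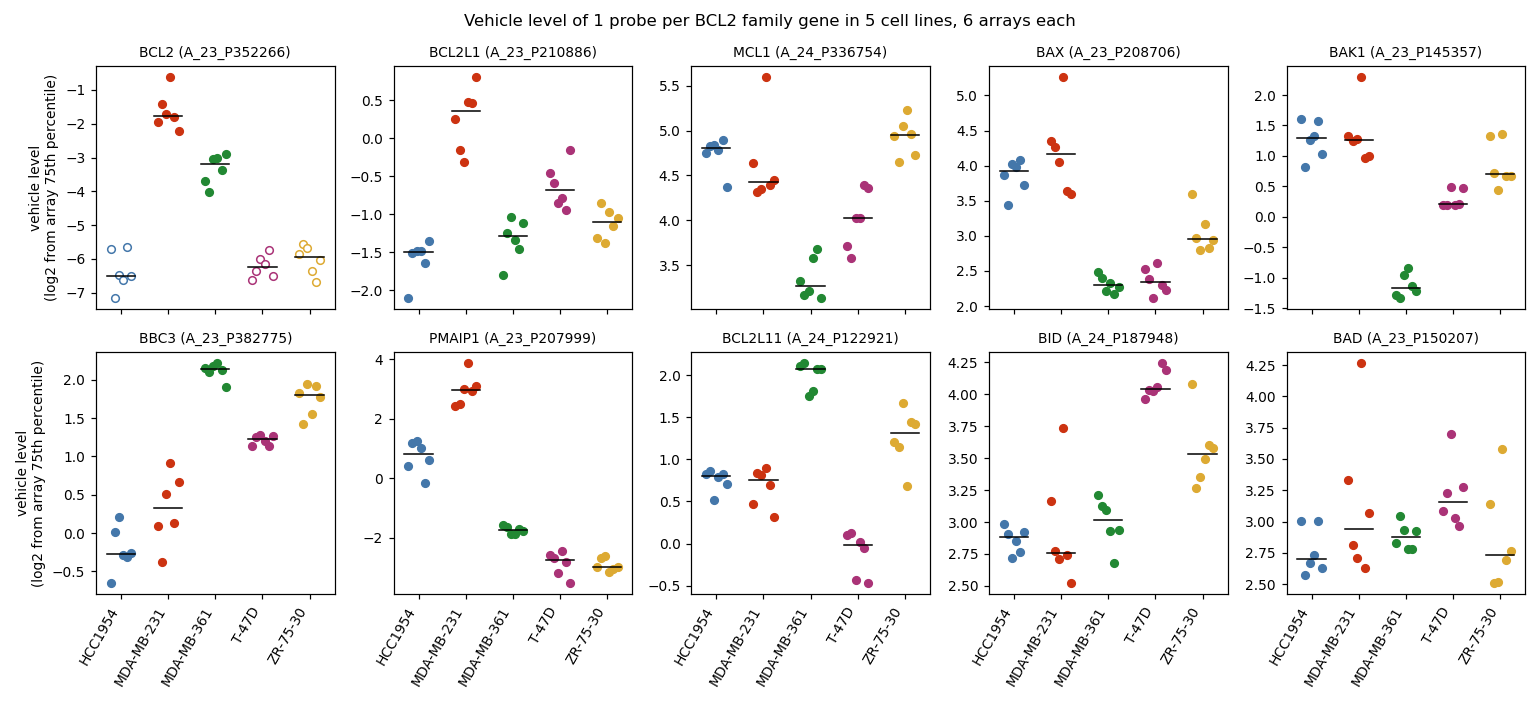
Vehicle level of 1 probe for each BCL2 family gene, as log2 from the 75th percentile of the array (y axis; its scale differs between panels), in 5 cell lines (x axis). Points are the 6 arrays of a line in order of time, open where the probe was not well above background, and bars are medians; BCL2 and BBC3 are shown by a probe other than their brightest. PMAIP1 spans 5.90 between line means, and this BCL2 probe has filled points in 2 lines.

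Among the survival genes, BCL2 was read by 2 probes, of which A_23_P352266 was detected in 2 lines and A_23_P208132 on all 30 vehicle arrays. The probe for the NM_000633 transcript (A_23_P352266, chr18:58941703-58941762, minus strand, hg18) was well above background on 6 of 6 vehicle arrays of MDA-MB-231 and on 6 of 6 of MDA-MB-361, and on 0 of 6 in each of the other lines. In MDA-MB-231 its level had a lowest, median and highest value of -2.23, -1.77 and -0.63, and in MDA-MB-361 of -4.02, -3.20 and -2.90. These arrays do not overlap with each other or with the dim lines, whose medians were -6.50 (HCC1954), -6.24 (T-47D) and -5.95 (ZR-75-30). Because those 3 lines gave only an upper bound, MDA-MB-231 was at least 18.1-fold higher than HCC1954, at least 9.92-fold higher than T-47D and at least 12.9-fold higher than ZR-75-30, where the bound takes the higher of the lowest signal called above background on an array and the dim probe's own (adjusted p of 2.13e-15, 4.22e-15 and 1.29e-14). MDA-MB-361 was at least 5.52-fold, 3.03-fold and 3.95-fold higher than the same lines. MDA-MB-231 exceeded MDA-MB-361 by 1.71 ± 0.28 (SE), or 3.27-fold, with an adjusted p of 6.38e-06.

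The other BCL2 probe (A_23_P208132, chr18:59136115-59136150, aligned over 36 bases) did not follow this order. Its vehicle level correlated with that of the NM_000633 probe at r = 0.0661 over the 30 arrays. Within a line it was wide, from -0.16 to 3.85 around a median of 0.46 in T-47D and from -0.72 to 3.87 around 1.06 in MDA-MB-231, and 9 of its 10 pairs of lines overlapped. It differed between lines with an adjusted p of 0.0390, and this call was lost when the arrays at 1, 3 or 24 h were left out (adjusted p of 0.107, 0.153 and 0.0979).

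BCL2L1, which encodes BCL-xL, was highest in MDA-MB-231 and lowest in HCC1954. Its brightest probe (A_23_P210886, chr20:29716985-29717044) had lowest, median and highest levels of -0.31, 0.36 and 0.80 in MDA-MB-231, -0.94, -0.69 and -0.16 in T-47D, -1.37, -1.10 and -0.85 in ZR-75-30, -1.80, -1.29 and -1.04 in MDA-MB-361, and -2.10, -1.50 and -1.36 in HCC1954. MDA-MB-231 exceeded T-47D by 0.88 (adjusted p of 8.74e-05) and T-47D exceeded ZR-75-30 by 0.49 (0.0223), although 1 or more arrays overlapped in each pair. From MDA-MB-231 to HCC1954 the difference was 1.85 ± 0.18 (SE), or 3.61-fold (1.33e-10). ZR-75-30 and MDA-MB-361 did not differ beyond their spread, with a 95% interval of -0.15 to 0.58, nor did MDA-MB-361 and HCC1954, with -0.10 to 0.63, whereas ZR-75-30 exceeded HCC1954 by 0.48 (0.0248). Its second probe (A_24_P100130, chr20:29773576-29773635) ranked the 5 lines alike, and the levels of both correlated at r = 0.937 over 30 arrays.

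MCL1, a short-lived survival protein, was lowest in MDA-MB-361. The brightest of its 3 probes (A_24_P336754, chr1:148813852-148813911) had lowest, median and highest levels of 3.13, 3.27 and 3.68 in MDA-MB-361, 3.58, 4.03 and 4.40 in T-47D, 4.32, 4.42 and 5.59 in MDA-MB-231, 4.37, 4.81 and 4.90 in HCC1954, and 4.65, 4.95 and 5.24 in ZR-75-30. The arrays of MDA-MB-361 overlapped with those of T-47D alone. ZR-75-30 exceeded MDA-MB-361 by 1.58 ± 0.18 (SE), or 2.99-fold (adjusted p of 8.40e-09), and T-47D exceeded it by 0.67 (0.00289). By this probe the upper 3 lines did not differ from each other beyond their spread, with 95% intervals of -0.19 to 0.56 for ZR-75-30 over HCC1954, -0.07 to 0.68 for ZR-75-30 over MDA-MB-231 and -0.26 to 0.50 for HCC1954 over MDA-MB-231. MDA-MB-361 was also the lowest line for the other MCL1 probes, A_24_P336759 (chr1:148814246-148814305) and A_24_P319635 (chr1:148817362-148817421), whose ranges between line means were 1.68 and 2.94. By A_24_P336759, however, T-47D did not exceed it beyond their spread (0.12, adjusted p of 0.720). By A_24_P319635 the upper 3 lines differed. HCC1954 exceeded MDA-MB-231 by 1.91 (adjusted p of 9.44e-09) and ZR-75-30 by 0.62 (0.0218), and ZR-75-30 exceeded MDA-MB-231 by 1.29 (1.03e-05).

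The effector genes BAX and BAK1 were low in MDA-MB-361 and high in MDA-MB-231 and HCC1954. BAX by its brightest probe (A_23_P208706, chr19:54156716-54156775, plus strand) had lowest, median and highest levels of 3.60, 4.16 and 5.26 in MDA-MB-231, 3.44, 3.93 and 4.08 in HCC1954, 2.80, 2.95 and 3.60 in ZR-75-30, 2.12, 2.35 and 2.61 in T-47D, and 2.17, 2.30 and 2.49 in MDA-MB-361. All arrays of MDA-MB-231 and HCC1954 lay above all arrays of T-47D and MDA-MB-361. MDA-MB-231 exceeded MDA-MB-361 by 1.88 ± 0.19 (SE), or 3.69-fold (adjusted p of 5.75e-10). T-47D and MDA-MB-361 did not differ beyond their spread (95% interval -0.34 to 0.45), nor did MDA-MB-231 and HCC1954 (-0.05 to 0.74).

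BAK1 (A_23_P145357, chr6:33648563-33648622, minus strand) had the wider range of the effectors. Its lowest, median and highest levels were 0.96, 1.26 and 2.29 in MDA-MB-231, 0.81, 1.29 and 1.60 in HCC1954, 0.43, 0.70 and 1.36 in ZR-75-30, 0.19, 0.20 and 0.49 in T-47D, and -1.33, -1.18 and -0.85 in MDA-MB-361. No array of MDA-MB-361 reached any array of another line. MDA-MB-231 exceeded it by 2.48 ± 0.19 (SE), or 5.56-fold (adjusted p of 5.35e-13), and T-47D, the next lowest, by 1.42 (1.01e-07). T-47D and ZR-75-30 differed by 0.57 (0.0115), whereas ZR-75-30 and HCC1954 did not pass the threshold, with a difference of 0.40 (95% interval 0.02 to 0.79, adjusted p of 0.0737). Of the other BAX probes, A_23_P346311 (chr19:54150770-54150829) was also lowest in MDA-MB-361 and followed the brightest probe at r = 0.796, and A_23_P346309 (chr19:54150541-54150600) followed it at r = 0.583 and, although lowest in MDA-MB-361, was high in T-47D, with a median of 2.05.

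Among the BH3-only genes, PMAIP1 differed most. Its probe (A_23_P207999, chr18:55721258-55721317, plus strand), printed on 10 spots, had lowest, median and highest levels of 2.44, 2.97 and 3.88 in MDA-MB-231, -0.16, 0.82 and 1.27 in HCC1954, -1.89, -1.74 and -1.59 in MDA-MB-361, -3.17, -2.97 and -2.62 in ZR-75-30, and -3.54, -2.75 and -2.46 in T-47D. Only the last 2 lines overlapped, and 9 of the 10 pairs were called. The median processed signal was 6363 in MDA-MB-231 and 118 in ZR-75-30. MDA-MB-231 exceeded ZR-75-30 by 5.90 ± 0.22 (SE), or 59.5-fold (adjusted p of 1.20e-20), HCC1954 by 2.25, or 4.76-fold (3.20e-10), and HCC1954 exceeded MDA-MB-361 by 2.47, or 5.54-fold (4.02e-11). T-47D and ZR-75-30 did not differ beyond their spread (0.04, 95% interval -0.42 to 0.49). Of all probes, 4.29% had a wider range between line means.

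BBC3 and BCL2L11 had the opposite extreme, with MDA-MB-361 highest. For BBC3, which encodes the p53 target PUMA, the probe A_23_P382775 (chr19:52416014-52416073, minus strand) had lowest, median and highest levels of 1.91, 2.14 and 2.22 in MDA-MB-361, 1.43, 1.80 and 1.94 in ZR-75-30, 1.14, 1.23 and 1.29 in T-47D, -0.38, 0.32 and 0.91 in MDA-MB-231, and -0.66, -0.27 and 0.21 in HCC1954. All arrays of the first 3 lines lay above all arrays of the last pair. MDA-MB-361 exceeded HCC1954 by 2.33 ± 0.16 (SE), or 5.04-fold (adjusted p of 4.99e-14), and did not pass the threshold against ZR-75-30 (0.37, 95% interval 0.05 to 0.70, adjusted p of 0.0527). The dim BBC3 probe A_24_P305312 (chr19:52416927-52416986) had the same highest and lowest line, with a range of 1.09, and the third and brightest, A_23_P90189, did not and is taken up with the ratios. For BCL2L11, which encodes BIM, the brightest of 5 probes (A_24_P122921, chr2:111642363-111642422, plus strand) had lowest, median and highest levels of 1.75, 2.07 and 2.14 in MDA-MB-361, 0.68, 1.31 and 1.67 in ZR-75-30, 0.52, 0.80 and 0.86 in HCC1954, 0.32, 0.75 and 0.90 in MDA-MB-231, and -0.47, -0.02 and 0.12 in T-47D. MDA-MB-361 and T-47D overlapped with no other line, and differed from each other by 2.11 ± 0.15 (SE), or 4.32-fold (5.95e-14). HCC1954 and MDA-MB-231 did not differ beyond their spread (95% interval -0.22 to 0.38).

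The other 4 BCL2L11 probes were dim, with median signals between 15.1 and 52.7 over the 30 arrays, and 4 to 29 arrays well above background. Their levels followed the brightest probe weakly, at r between -0.22 and 0.465. A_23_P309996 had the same highest and lowest line as the brightest probe, A_23_P154426 and A_23_P309991 shared only T-47D as the lowest, and A_23_P425954 shared neither. A_23_P309991 and A_23_P425954, whose positions overlap (chr2:111638189-111638248 and chr2:111638203-111638262), followed each other at r = 0.832.

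BID, which is cut by caspase-8 to its active form, was highest in T-47D. Its brightest probe (A_24_P187948, chr22:16598182-16598241, minus strand) had lowest, median and highest levels of 3.96, 4.04 and 4.25 in T-47D, 3.26, 3.53 and 4.08 in ZR-75-30, 2.68, 3.02 and 3.21 in MDA-MB-361, 2.52, 2.76 and 3.74 in MDA-MB-231, and 2.72, 2.88 and 2.98 in HCC1954. T-47D overlapped only with ZR-75-30, which it exceeded by 0.52 (adjusted p of 0.00592), and it exceeded HCC1954 by 1.23 ± 0.16 (SE), or 2.34-fold (5.97e-08). The lower 3 lines did not differ beyond their spread, with 95% intervals of -0.27 to 0.38 and -0.24 to 0.40 between neighbours. The other BID probe (A_23_P154929, chr22:16598038-16598097) was also highest in T-47D, but its lowest line was MDA-MB-231, 2.15-fold apart. HCC1954, with the lowest mean by the brightest probe, was the next highest line by this one. It was 0.26 below T-47D (adjusted p of 0.236) and 0.70 above ZR-75-30 (0.00159). BAD (A_23_P150207, chr11:63794098-63794157, minus strand), a BH3-only protein held inactive by AKT, was the 1 gene without a call between lines. Its medians lay between 2.70 in HCC1954 and 3.16 in T-47D, its range between line means was 0.45 (adjusted p of 0.182), and 98.9% of probes had a wider range. BAD passed the threshold without the 6 h arrays (0.0230) and in the first of the 2 scan batches alone (0.00149).

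The MDA-MB-231 array at 6 h stood out in these levels. It held the highest level of its line for 15 of the 23 probes and the lowest for 4, and the share over all probes was not determined. It had the lowest 75th percentile signal of all arrays (311, against 481 to 2039 on the others). It was in the second scan batch, with 5 other arrays. Without it 22 probes and 147 pairs were called, against 85.1% and 51.7% over all probes, and within the first scan batch alone 23 probes and 156 pairs were, against 83.4% and 53.5%.

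Over the 30 vehicle samples, which share 5 lines, the levels of BAK1 followed those of MCL1 at r = 0.879 and those of BAX at r = 0.828, and those of PMAIP1 followed BAX at r = 0.815. Among 14898 probes, the genes most like PMAIP1 included KCNIP3 and PRKCA, at r of 0.969 and 0.961. Those most like BAK1 were VPS37A, ACTN1 and CD58, at 0.975, 0.969 and 0.968. These are descriptions over the same 5 lines, whose differences enter each r.

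The vehicle levels were also compared over time in culture. Between 12 to 24 h and the first hour, with cell line as a block, 0 of 23 probes were called by limma, 1 had an unadjusted p under 0.05, and 0.0561% of all probes were called (7.44% unadjusted). The largest difference was -0.45 ± 0.37 (SE) for the BBC3 probe A_23_P90189, and the lowest adjusted p was 0.614.

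The next question was whether BMP7 moved the family. No member passed the threshold in any of the 3 tests of the BMP7 ratio over lines and time. For the mean over all times, 0 of 23 were called and 6 had an unadjusted p under 0.05, against 0.00976% and 15.4% of all probes. From 30 min to 3 to 24 h, 0 were called and 4 were unadjusted, against 0.0171% and 17.6%. From the first hour to 12 to 24 h, 0 were called and 6 were unadjusted, against 0.181% and 17.6%. The largest size in the 3 tests was 0.81 (BBC3 probe A_23_P90189, adjusted p of 0.126), and the median change of the family was -0.09, 0.05 and 0.02, against -0.000448, 0 and -0.00097 over all probes. As a check on the treatment, ID2, a direct BMP target, rose by 1.14 ± 0.14 (SE) from 30 min to 3 to 24 h (adjusted p of 0.00220), and ID2, ID3 and SMAD6 rose by 0.91, 0.80 and 0.59 from the first hour to 12 to 24 h (0.00558, 0.0403 and 0.0263). The check list held 6 probes of ID1, ID2, ID3, SMAD6 and SMAD7. Of these, 1 was called from 30 min and 3 from the first hour. In the mean ratio 0 were called, although their median was 0.63 and 5 had an unadjusted p under 0.05. A missing call therefore does not show that a gene did not respond.

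**Figure D2:**
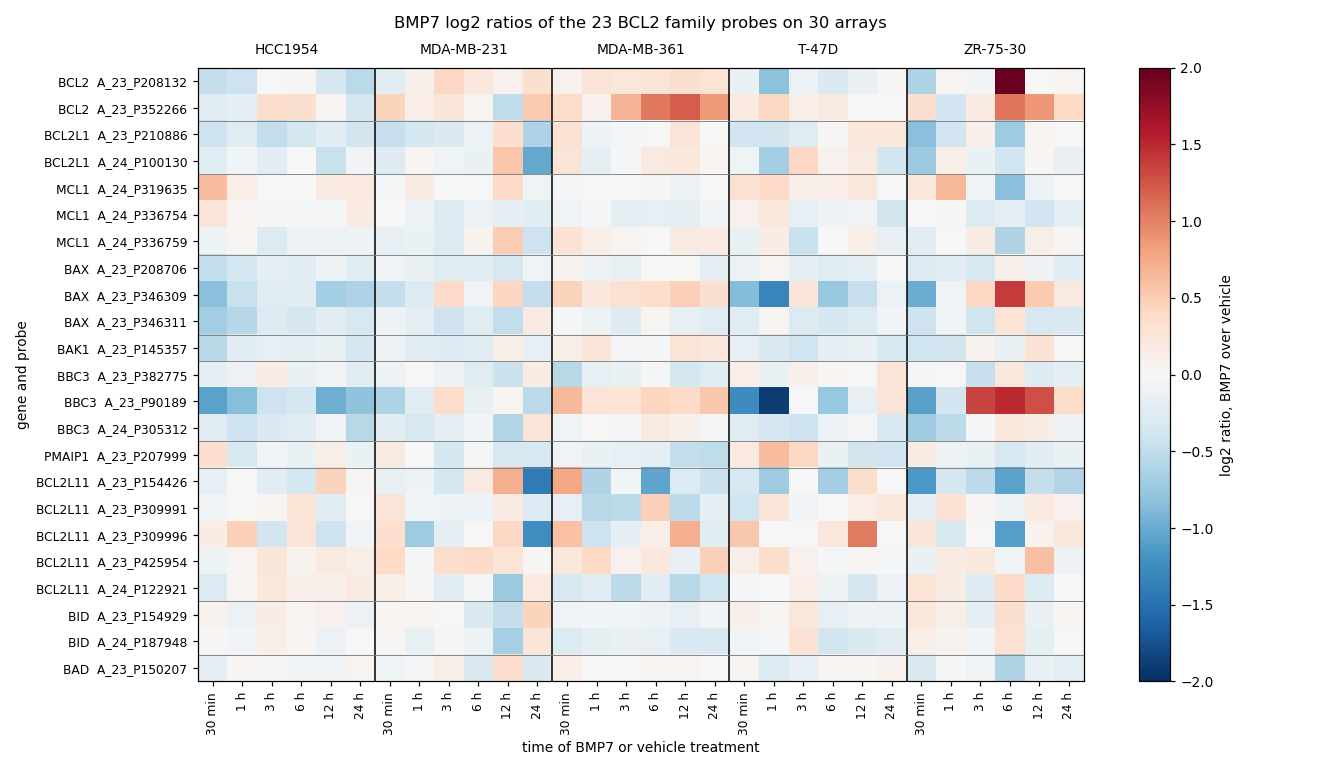
Log2 ratio of BMP7 over vehicle (colour, from -2 to 2) for the 23 BCL2 family probes (rows, grouped by gene) on 30 arrays (columns, by cell line and time). Most cells are pale, and the strong colours lie in the rows of BCL2 A_23_P208132 and A_23_P352266, BAX A_23_P346309, BBC3 A_23_P90189 and the dim BCL2L11 probes, with 21 of 690 values past 2-fold.

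The members nearest to a change with time, in tests partly mixed with scan batch, were MCL1 and PMAIP1. For MCL1 (A_24_P336754), the ratios of HCC1954, MDA-MB-231, MDA-MB-361, T-47D and ZR-75-30 were 0.25, 0.02, -0.07, 0.08 and -0.01 at 30 min, 0.04, -0.11, -0.04, 0.21 and 0.02 at 1 h, 0.02, -0.28, -0.18, -0.17 and -0.28 at 3 h, -0.03, -0.12, -0.17, -0.12 and -0.19 at 6 h, -0.02, -0.19, -0.19, -0.07 and -0.38 at 12 h, and 0.16, -0.23, -0.06, -0.36 and -0.19 at 24 h. At 6 and 12 h all 5 lines were below 0. From 30 min to 3 to 24 h the difference was -0.21 ± 0.05 (SE), below 0 in 5 of 5 lines (adjusted p of 0.0852), and from the first hour to 12 to 24 h it was -0.19 ± 0.05 (SE), below 0 in 5 of 5 lines (0.0660). Neither passed the threshold, but the first did when the 1 h arrays were counted with those at 30 min (0.0431), and the second without the 24 h arrays (0.0461). For 12 to 24 h against the first hour the probe A_24_P319635 had -0.18 (adjusted p of 0.402) and followed it in ratio at r = 0.560, whereas A_24_P336759 had 0.05 (0.855) and r = 0.0117.

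For PMAIP1 the ratios in the same order of lines were 0.34, 0.18, -0.06, 0.19 and 0.15 at 30 min, -0.31, 0.01, -0.13, 0.64 and -0.10 at 1 h, -0.06, -0.36, -0.16, 0.42 and -0.13 at 3 h, -0.13, -0.04, -0.19, -0.13 and -0.31 at 6 h, 0.12, -0.32, -0.49, -0.36 and -0.21 at 12 h, and -0.13, -0.33, -0.51, -0.38 and -0.13 at 24 h. All lines were below 0 at 6 and at 24 h. From the first hour to 12 to 24 h the difference was -0.36 ± 0.10 (SE), below 0 in 5 of 5 lines, with an adjusted p of 0.0701. With only spots well above background in both channels, it passed at 0.0391 and MCL1 at 0.0444, in a setting that called 5.43% of the probes tested. The standard deviation of the log2 ratio over its 10 spots had a median of 0.07 per array.

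**Figure D3:**
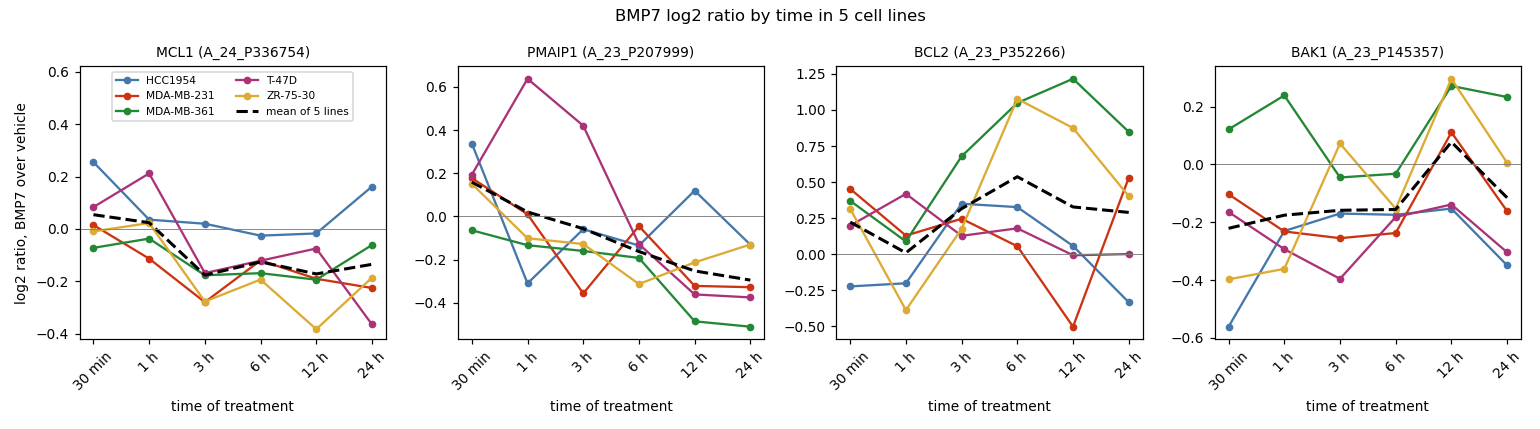
Log2 ratio of BMP7 over vehicle (y axis; its scale differs between panels) against time (x axis, unevenly spaced times) for 1 probe each of MCL1, PMAIP1, BCL2 and BAK1. Each line is a cell line with 1 array per point, and the dashed line is the mean of the 5 lines. PMAIP1 ends below 0 in all 5 lines, and BCL2 passes 1 in MDA-MB-361 and ZR-75-30 at 6 h. The ZR-75-30 value rests on a vehicle signal of 13.2, without both channels well above background.

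The BCL2 probe A_23_P352266 had positive ratios throughout in MDA-MB-361, 1 of the 2 lines in which it was detected. Its ratios there were 0.37, 0.09, 0.68, 1.05, 1.22 and 0.85 from 30 min to 24 h. All 6 values were above 0, and those at 6 and 12 h were 2-fold events with both channels well above background, at vehicle signals of 114 and 121. In MDA-MB-231, the other line in which this probe was detected, the ratios were 0.45, 0.13, 0.25, 0.05, -0.50 and 0.53. The difference between lines in this probe had a range of 0.71 between line means and an adjusted p of 0.0987, and ratios of the 3 dim lines rest on signals at background. The spread over its 10 spots was 0.19 per array at the median.

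BAX was below 0 in the mean of every line by 2 of its 3 probes, A_23_P208706 and A_23_P346311, whereas A_23_P346309 had means of 0.35 in MDA-MB-361 and 0.24 in ZR-75-30. The means of A_23_P208706 were -0.06 in MDA-MB-361, -0.11 in T-47D, -0.17 in ZR-75-30, -0.18 in MDA-MB-231 and -0.26 in HCC1954, and their mean was -0.16 ± 0.03 (SE, 5 lines, adjusted p of 0.147). With all 30 arrays and line as a random block its adjusted p was 0.00164, in a setting that called 6.84% of all probes. A constant dye effect of a probe, which would shift all 5 lines alike, cannot be told apart from this value, since no dyes were swapped, and the change between the first hour and 12 to 24 h, in which it cancels, was 0.02 (0.913).

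BCL2L1, BCL2L11, BID and BAD reached 2-fold on no array by their brightest probes. For BCL2L1 (A_23_P210886) the mean ratio was 0.07 in MDA-MB-361, -0.09 in T-47D, -0.25 in MDA-MB-231, -0.30 in ZR-75-30 and -0.35 in HCC1954, and the ratio at 12 to 24 h was above that of the first hour by 0.31 ± 0.11 (SE), in 5 of 5 lines (adjusted p of 0.144). Its second probe, A_24_P100130, gave 0.08 ± 0.15 (SE), below 0 in 2 of 5 lines (0.839). BCL2L11 (A_24_P122921) was below 0 on all 6 arrays of MDA-MB-361, from -0.56 to -0.22, and its mean in the other lines lay between -0.11 and 0.06, with an adjusted p of 0.0911 between lines. BID (A_24_P187948) was likewise below 0 on all 6 arrays of MDA-MB-361, from -0.32 to -0.14, with an adjusted p of 0.287 between lines. BAD lay between -0.61 and 0.33, and its mean over lines was -0.06 ± 0.04 (SE, 5 lines, adjusted p of 0.565).

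Between cell lines the BMP7 ratio differed for 2 of 23 probes, BAK1 and the BBC3 probe A_23_P90189, against 11.0% of all probes. At an unadjusted p under 0.05 there were 6 of 23, against 30.8%. The median range between line means was 0.31 for the family and 0.33 for all probes. The BAK1 ratios from 30 min to 24 h were 0.12, 0.24, -0.05, -0.03, 0.27 and 0.23 in MDA-MB-361, -0.56, -0.23, -0.17, -0.17, -0.15 and -0.35 in HCC1954, and -0.16, -0.29, -0.40, -0.18, -0.14 and -0.30 in T-47D. MDA-MB-231 lay between -0.26 and 0.11 and ZR-75-30 between -0.40 and 0.30. All 6 arrays of MDA-MB-361 were above all those of HCC1954 and T-47D. The range of line means was 0.40 (adjusted p of 0.0337), and over all probes and pairs MDA-MB-361 exceeded HCC1954 by 0.40 ± 0.10 (SE, 0.0288) and T-47D by 0.38 (0.0396). BAK1, whose vehicle level was lowest in MDA-MB-361, had its highest mean ratio there. The vehicle signal is the denominator of that ratio, and whether the level bears on the ratio was not tested. The range was 0.35 (0.0457) within the first scan batch. The call was lost with slide as a random block (0.0533) and without the arrays at 30 min, 1, 3, 6 or 24 h (0.0512 to 0.179). With 1 exception each slide held a single line.

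The BBC3 probe A_23_P90189 (chr19:52423274-52423333) was by the rule the main probe of its gene, as the brightest, but it went with probes of other genes rather than with those of BBC3. Its vehicle signals ran from 12114 to 214646 and its ratios from -1.90 to 1.50, which makes it a bright probe with a widely varying ratio. Its vehicle level was highest in T-47D, with a median of 7.05, and lowest in ZR-75-30, with 4.73, where single arrays ran from 3.72 to 7.29. By line its mean ratio was 0.51 in ZR-75-30, 0.42 in MDA-MB-361, -0.18 in MDA-MB-231, -0.64 in T-47D and -0.74 in HCC1954, a range of 1.25 (adjusted p of 0.0395). In ZR-75-30 the 6 ratios were -1.09, -0.37, 1.35, 1.50, 1.29 and 0.37 and in MDA-MB-361 0.66, 0.27, 0.27, 0.42, 0.38 and 0.54. The ratio of A_23_P90189 correlated with the vehicle level of the same probe at r = -0.595 over 30 arrays. That vehicle signal is the denominator of the ratio, and whether the level bears on the ratio was not tested. Without the ZR-75-30 array at 6 h the range was 1.17 and the adjusted p 0.0592, and within the first scan batch the range was 1.42 (0.0241). The call was also lost with slide as a random block (0.0636) and without the arrays at 1, 3, 6, 12 or 24 h (0.0785 to 0.134).

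Its ratios followed those of the BAX probe A_23_P346309 at r = 0.934 and those of the BCL2 probe A_23_P208132 at r = 0.711, and these followed each other at r = 0.814 over 30 arrays that share 5 lines. Without the ZR-75-30 array at 6 h the values were 0.927, 0.706 and 0.789. Against the other BBC3 probes, the ratios of A_23_P90189 correlated at -0.268 (A_23_P382775) and 0.54 (A_24_P305312), and its vehicle levels at -0.45 and -0.0592. Because of this, the values of A_23_P90189, A_23_P346309 and A_23_P208132 are given for the probes and not for the genes. The vehicle levels most like A_23_P90189 were those of probes for BMP8A, CASKIN1 and LCE5A, at r of 0.993, 0.989 and 0.988.

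**Figure D4:**
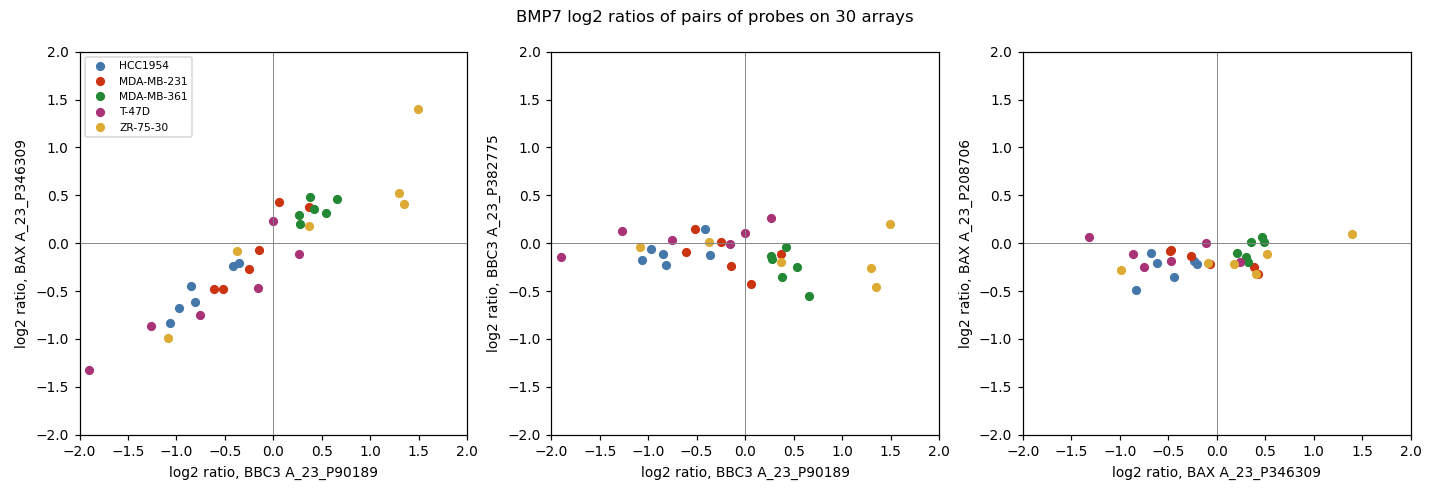
Log2 ratios of BMP7 over vehicle of 2 probes against each other on 30 arrays, coloured by cell line, both axes from -2 to 2. Left, the BBC3 probe A_23_P90189 and the BAX probe A_23_P346309 rise together (r = 0.934); middle, A_23_P90189 against another BBC3 probe (r = -0.268); right, A_23_P346309 against the brightest BAX probe (r = 0.261).

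Changes of at least 2-fold on single arrays were few. Of 690 values, 21 (3.04%) were such events, 9 up and 12 down, against 1.87% over all probes, and 16 of the 23 probes had none. Both channels were well above background in 13 of the 21. The 3 probes that moved together held 10 events, and 11 lay outside them. The ZR-75-30 array at 6 h held 6 events, and this array had 4044 events over all probes, the most of the 30. Outside the 3 probes, the events with both channels above background were those of BCL2 in MDA-MB-361 and 1 of BCL2L1 (A_24_P100130, -1.02 in MDA-MB-231 at 24 h).

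Other genes of the pathway were read from 2 lists. Of 13 further BCL2 family genes, 15 of 20 probes differed between lines in vehicle cells, a share near the 76.9% of all probes, with ranges of 3.08 for BIK, 2.51 for BNIP3, 2.33 for HRK (A_24_P52882) and 2.05 for BMF. BIK, a BH3-only gene, had its highest median level of -0.13 in ZR-75-30 and its lowest, -3.20, in T-47D. BMF, another BH3-only gene, was highest in MDA-MB-361 at -1.04. In the BMP7 ratio 3 of the 20 probes differed between lines, against 11.0% of all probes, HRK (A_24_P52882) by 1.21, BMF by 0.71 and BNIP3L by 0.39, and 0 of 20 were called by limma in the mean ratio, from 30 min to 3 to 24 h or from the first hour to 12 to 24 h, with 5 at an unadjusted p under 0.05 in each.

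Of 15 apoptosis executors and inhibitors, 21 of 22 probes differed between lines in vehicle cells, against 76.9% of all probes. Among them BIRC3, an inhibitor of apoptosis protein, had a range of 8.66 and was well above background on 0 of 6 arrays in MDA-MB-361, and a probe of the initiator caspase CASP10 (A_23_P209408) had 5.92, above background on 6 of 6 arrays in HCC1954 and MDA-MB-231 and 0 of 6 in each of the other lines. Both ranges end in lines at background, so they are not fold changes. BIRC2 had a range of 2.93, highest in HCC1954, and APAF1, the scaffold of the apoptosome, 2.92, highest in MDA-MB-361. In the BMP7 ratio 2 of 22 differed between lines, against 11.0% of all probes, a probe of cytochrome c (CYCS A_24_P29665) by 1.20 and CASP9 by 0.53, and 0 of 22 were called by limma in the mean or with time, with 2, 4 and 4 at an unadjusted p under 0.05.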

How the data were processed

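Processed scanner files of 30 two-colour arrays were used, with the vehicle sample of each line and time in Cy3 and the BMP7 sample in Cy5. Per the file headers, the deposited intensity values (processed signals) and log10 ratio values were made with Feature Extraction 9.5.1.1, which subtracted background and normalised the dyes by linear and lowess fits. Probe positions are those of hg18 in the files, and exon or UTR positions were not determined here.

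Spots of a probe were averaged after control and outlier-marked spots were left out, which gave 41000 probes. Of these, 55.5% to 69.8% were well above background in the vehicle channel of an array. The deposited log10 ratio was turned into a log2 ratio and the array median set to 0. The vehicle level was the log2 of the deposited Cy3 signal over the 75th percentile of its array. Tests were run with limma 3.58.1 in R 4.3.3 over all probes, adjusted by Benjamini-Hochberg and called under 0.05: between lines over 6 arrays each, over time with line as a block, and for the mean of 5 line means. Each condition was hybridised once, so p-values measure the spread over times or lines, and the number of arrays limits the precision. The study itself called expression changes by fold limits, so the tests are additions.

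All probes of the 10 genes were taken, the main probe being the brightest, and genes with like patterns were the 3 with the highest r for the 3 members of widest range. Of these like genes, 1 is not reported here. The members and gene lists were chosen with earlier results of these data known. Scaling, background correction, filters, the deposited series matrix (log2 ratios, by comparison with each array's own log10 ratios), scan batch, slide and left-out arrays were tried as alternatives. There were 13 slides and 2 scan batches, and except for 1 slide, slide and line cannot be told apart.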

Additional observations from a re-analysis of the deposited data

Results flagged for a closer look

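In groups of 6 arrays, a highest or lowest array was marked where its gap to the nearest other array was a large part of the whole range. This happened in 5 of the 100 groups tested, and chance marks about 1 in 20. The BCL2 probe A_23_P208132 had a log2 ratio of 1.97 in ZR-75-30 at 6 h, with the other 5 arrays between -0.61 and 0.06. That array held 4044 2-fold events over all probes. In MDA-MB-231 at 6 h the vehicle level of MCL1 was 5.59, with the others between 4.32 and 4.64, and that of BAK1 was 2.29, with the others between 0.96 and 1.33. The vehicle level of MCL1 in HCC1954 at 24 h was 4.37, against 4.75 to 4.90. The log2 ratio of BCL2L11 (A_24_P122921) in HCC1954 at 30 min was -0.272, against 0.06 to 0.21.

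The BMP7 ratio differed between cell lines for BAK1, with a range of line means of 0.404, and for the BBC3 probe A_23_P90189, with 1.25. The causes were not tested.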

How the results depend on the processing

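The vehicle differences between lines were called for 19 to 23 probes and 129 to 156 pairs under every alternative, and the change in vehicle level with time for 0 throughout. The BMP7 ratio between lines, called for 2 probes (11.0% of all probes), was called for 7 with normexp and loess (15.5%), 0 with normexp and median scaling (0.112%), 4 with the series matrix values (14.2%), 5 with time point as a replicate block, which pairs arrays of the same time (15.2%), 0 with slide as a random block (6.41%), and 4 in the first scan batch alone (11.1%), an alternative chosen after seeing the data. With 1 time point or array left out it was 0 to 3, being 0 without 1, 3, 6 or 24 h. At 12 to 24 h against the first hour, 0 became 2 (PMAIP1 and MCL1) with both channels well above background (5.43% of probes, from 0.181%), and 0 to 1 with a time point left out (MCL1 without 24 h, 0.559%). At 3 to 24 h against 30 min, 0 became 1 (MCL1) when 1 h was counted with 30 min (0.618%, from 0.0171%), and 1 with a 2-level time term (0.578%), chosen after seeing the data. Leaving out 30 min could not be run there. The mean ratio, 0 (0.00976%), became 1 with normexp and median scaling (7.67%), where BBC3 A_23_P90189 reversed from -0.13 to 0.42 (adjusted p of 0.0444), and 2 with all 30 arrays and line as a random block (both BAX, 6.84%). The 21 events became 2 at 3-fold, 33 with normexp and median scaling, and 9 where loess followed normexp. The dim BCL2L11 probe A_23_P309996 reversed between HCC1954 and MDA-MB-361 with normexp and quantile (from -0.02 to 0.18). Of the single probe values called in the reported or the alternative setting, 2529 kept their direction and call, 118 gained one and 111 lost it, and the causes were not tested. Dim probes (BCL2 A_23_P352266 in 3 lines, 4 BCL2L11 probes) are limited by signal over background.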
